A study of Mus musculus with 9 samples.

Results

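The genes described here are 9 genes of retinoid metabolism and of the aldehyde dehydrogenase family: Aldh1a1, Aldh1a2, Aldh1a3, Aldh1a7, Aldh3a1, Dhrs9, Crabp1, Crabp2 and Isx. They were taken by symbol from a table of 38203 genes measured in mouse epidermis, and each symbol stood in 1 row. The list was chosen from measured values of the same 9 libraries, so the levels and differences of these genes are given as a description and not as a test. Of the 9 genes, 8 averaged above 0.1 FPKM in at least 1 genotype and entered the fit, and Aldh1a2 did not. FPKM divides the fragments of a gene by the length of its exons and by the size of the library, so that levels of different genes may be set side by side.

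Retinoic acid is made from vitamin A in a pair of oxidation steps, from retinol to retinaldehyde by alcohol and retinol dehydrogenases and from retinaldehyde to retinoic acid by aldehyde dehydrogenases of the 1A group. Inside the cell retinoic acid is carried by Crabp proteins, it acts through the nuclear receptors Rar and Rxr, and it is cleared by Cyp26 enzymes. Epidermis is a classical target tissue of vitamin A, whose lack or excess changes how keratinocytes differentiate and cornify.

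Esrp1 and Esrp2 are splicing factors found in epithelial cells, and the study asked what their loss does to the epidermis. RNA came from full thickness trunk epidermis, separated from the dermis with trypsin, of single E18.5 embryos on a mixed C57BL6/129Sv background. The 4 genotypes were WT with 2 libraries, KO (Esrp1-/-, Esrp2+/+) with 3, KH (Esrp1-/-, Esrp2+/-) with 2 and DKO (Esrp1-/-, Esrp2-/-) with 2. The Esrp1 allele was a floxed allele deleted in the germline by Zp3-Cre, a Cre active in oocytes, and the Esrp2 allele was a KOMP allele in which LacZ replaces the gene, so every tissue of the embryo lacked the genes and not the epidermis alone. The sample labels call the controls WT, whereas the description of the RNA extraction lists controls with Esrp1+/+ and Esrp2-/-. The libraries labelled WT are called WT here.

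The targeted genes were checked first. Esrp2 was at 0.0843 and 0.0463 FPKM in DKO, whereas WT libraries had 118 and 136, KO libraries 88.1, 88.4 and 131, and KH libraries 38.6 and 89.5. The libraries labelled WT therefore contained Esrp2 RNA, and KH replicate 2, at 89.5, was as high as the lower KO libraries, so that its heterozygous label is in doubt and with it every value that rests on the 2 KH libraries. Esrp1 was at 119 and 142 FPKM in WT and between 18.2 and 55.1 in the 7 libraries without it, whose allele lacks only some of the exons. Of 12 lists of cell type markers, none had a sum in DKO that lay apart from all 7 other libraries. Against WT alone, both DKO sums were higher for basal keratinocytes, hair follicle, melanocytes and immune cells. They were lower for the spinous layer and for simple and oral type epithelium, and overlapped in the other lists. Such sums are led by the most abundant genes and do not measure tissue composition. By histology the paper found thinner DKO epidermis with fewer hair follicles. Markers of basal keratinocytes summed to between 3653 and 7877 FPKM and those of the spinous layer to between 31819 and 85507, so the labelled tissue was present in each library. The 6 markers of the granular and cornified layer summed to between 3951 and 5857 FPKM in KH replicate 1, KO replicate 1 and DKO replicate 2 and to between 8583 and 11819 in the other libraries. Xist was above 76 FPKM in all KO libraries and in WT replicate 2 and at or below 0.178 in the others, so the KO libraries differ from the DKO libraries in Xist as well as in genotype, whereas KH and DKO are alike in Xist. The table holds no read counts, so the number of reads behind each value is not known from it and no counting interval is given. All values are from bulk tissue, in which fewer cells of a type and less RNA per cell cannot be told apart.

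Sequences of 120 bases before the start site are shown for 3 of the genes, because Aldh1a1 and Aldh1a7 lie next to each other and match over most of these bases but differ in level, and because Dhrs9 holds a retinoic acid receptor half-site and an AP-1 motif. They are RefSeq start sites on GRCm38.p6, read 5′ to 3′ along the gene. Capitals in the first pair mark runs of at least 12 bases that are identical at the same distance from the start site, the last of which goes on past the start site, and in Dhrs9 they mark the motifs named after the sequences.
Aldh1a1 (chr19:20601848-20601967, + strand): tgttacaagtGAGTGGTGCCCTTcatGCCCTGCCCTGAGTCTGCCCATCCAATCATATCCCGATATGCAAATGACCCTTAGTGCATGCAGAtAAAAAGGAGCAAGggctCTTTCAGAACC
Aldh1a7 (chr19:20727557-20727676, - strand): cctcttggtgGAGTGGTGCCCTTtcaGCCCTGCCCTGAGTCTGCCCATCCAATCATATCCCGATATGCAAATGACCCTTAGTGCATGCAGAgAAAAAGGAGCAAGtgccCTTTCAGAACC
Dhrs9 (chr2:69380342-69380461, + strand): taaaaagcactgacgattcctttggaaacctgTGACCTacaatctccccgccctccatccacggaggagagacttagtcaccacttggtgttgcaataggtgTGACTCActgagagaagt

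Aldh1a1 and Aldh1a7 occupy chromosome 19 from 20601960 to 20643462 and from 20692952 to 20727562 in mm10, 49490 bases apart. Compared at the same distance from the start site without gaps, their promoters were identical at 105 of the 120 bases shown, with 1 unbroken run of 65. Of the first 150 bases of the 300-base windows, 35 matched in this way. That count misses stretches that match at a shifted position. The first bases of the Aldh1a1 window recur, slightly altered, farther along the Aldh1a7 window, and no gapped alignment of the windows was run. RefSeq gives Aldh1a1 a further start site upstream, whose window (chr19:20492333-20492632) was not compared with that of Aldh1a7. Their coding sequences, both of 1506 bases, were identical at 91.6% of positions, against 68.7% to 69.9% for the other pairs among Aldh1a1, Aldh1a2, Aldh1a3 and Aldh1a7. Of the 100-base windows of the Aldh1a7 transcript, 1 of 1967 occurred unchanged in an Aldh1a1 transcript, and of its 50-base windows 151 of 2017 did (7.49%). Reads from these stretches could be credited to either gene, so the level of Aldh1a1, the lower of the pair, is the less certain.

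The Dhrs9 window held the retinoic acid receptor motif AGGTCA on the opposite strand, beginning 88 bases before the start site, and the AP-1 motif TGACTCA 18 bases before it. Of 32817 RefSeq windows of the same length, 16.3% held the first and 5.2% the second on either strand. Windows were found for 6 of the 9 genes, and Aldh1a3, Aldh3a1 and Crabp2 had none. Neither direct repeats of AGGTCA spaced by 2 or 5 bases (0.00914% of windows each) nor the Grhl motif AACCGGTT (0.146%) occurred in the windows found. The antioxidant response core TGACNNNGC (12.4% of windows) occurred once, before Aldh1a2, and a further AP-1 motif lay in the more upstream of both Aldh1a1 windows. No letters of these motifs were in the windows of Aldh1a7, Crabp1 and Isx.

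Aldh1a7 was the gene with the largest difference between DKO and each other genotype on the log2(FPKM + 1) scale, while as a ratio of means Isx against WT and Dhrs9 against KO and KH, both at low levels, differed more. It encodes a rodent paralog of the retinaldehyde dehydrogenase Aldh1a1. The DKO libraries measured 2.11 and 2.65 FPKM, whereas WT measured 47.7 and 88.8, KO 27.6, 42.3 and 67.0, and KH 34.9 and 38.0. Both DKO libraries lay far below the lowest of the other 7, and the ranges of WT and KO overlapped, while KH lay within the range of KO and below both WT libraries. The WT mean was 68.2 ± 29.1 FPKM (SD, n = 2), the KO mean 45.6 ± 19.9 (n = 3), the KH mean 36.4 ± 2.21 (n = 2) and the DKO mean 2.38 ± 0.383 (n = 2). DKO thus held 3.48% of the WT level, 5.21% of the KO level and 6.53% of the KH level. The difference between DKO and WT was -4.30 (SE 0.41) on the log2(FPKM + 1) scale, and those to KO and KH were -3.70 (SE 0.37) and -3.47 (SE 0.41).

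Dhrs9, a short-chain dehydrogenase that oxidises retinol, showed the opposite pattern at a far lower level. Its values were 1.51 and 0.937 FPKM in DKO, against WT at 0.0313 and 0.0805, KO at 0.0300, 0.0502 and 0.0479, and KH at 0.0165 and 0.0426. In the 7 libraries of the other genotypes it was close to 0, and it passed the filter on low values through DKO alone. The mean rose from 0.0559 ± 0.0348 in WT to 1.22 ± 0.402 in DKO (SD, n = 2 each), a ratio of 21.9 that was 39.1 without WT replicate 2. The ratios to KO and KH were 28.6 and 41.3. On the log2(FPKM + 1) scale, which understates changes of low genes, the difference was 1.06 (SE 0.12) to WT, 1.08 (SE 0.11) to KO and 1.10 (SE 0.12) to KH.

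Isx is a homeobox factor best known from the intestine, where retinoic acid induces it and where it holds down the carotenoid-cleaving enzyme gene Bcmo1 and the uptake receptor gene Scarb1. WT libraries stood at 0.0464 and 0.0444 FPKM, KO at 0.0286, 0.132 and 0.195, KH at 0.134 and 0.152, and DKO at 2.29 and 1.78. Both DKO libraries were above all others, and KH lay above WT and within the range of KO. DKO averaged 2.04 ± 0.358 FPKM against 0.0454 ± 0.00138 in WT (SD, n = 2 each), a ratio of 44.8, and the ratios to KO and KH were 17.2 and 14.2. The differences on the log2(FPKM + 1) scale were 1.53 (SE 0.12) to WT, 1.44 (SE 0.11) to KO and 1.404 (SE 0.12) to KH. Of its intestinal targets, Bcmo1 was at 0.524 and 0.123 FPKM in DKO and between 0.105 and 0.744 in the other libraries. Scarb1 was at 4.99 and 6.93 FPKM in DKO, above WT at 4.22 and 4.80 but within the range of KO and KH at 3.69 to 8.09.

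**Figure D1:**
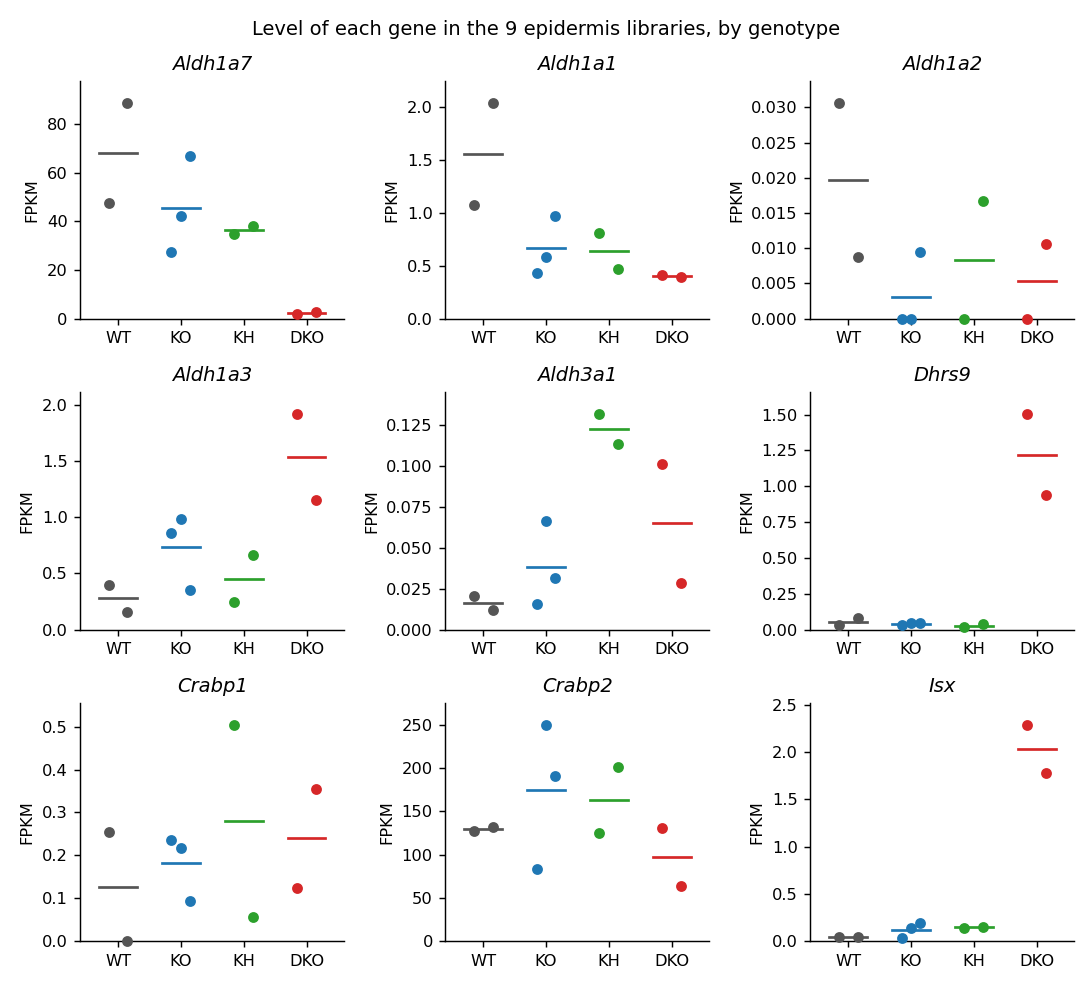
FPKM (linear axis from 0, a scale of its own in each panel) of the 9 genes in each library, grouped by genotype, with points for libraries and lines for means. The DKO libraries of Aldh1a7 sit at 2.11 and 2.65 FPKM against 27.6 to 88.8 elsewhere, those of Dhrs9 at 0.937 and 1.51 against at most 0.0805, and those of Isx at 1.78 and 2.29 against at most 0.195.

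Among the enzymes that make retinoic acid from retinaldehyde, Aldh1a3 lay higher and Aldh1a1 lower in DKO than in WT, both at low levels, and neither difference was called. Aldh1a3 measured 1.92 and 1.16 FPKM in DKO, while the WT libraries measured 0.397 and 0.159, the KO libraries 0.862, 0.984 and 0.352, and the KH libraries 0.247 and 0.661. Both DKO libraries exceeded the highest other library, a KO library at 0.984. The DKO mean of 1.54 ± 0.540 FPKM was 5.52 times the WT mean of 0.278 ± 0.168 (SD, n = 2 each), and 9.64 times without WT replicate 1. The log2(FPKM + 1) difference was 0.98 (SE 0.24).

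Aldh1a1 was highest in WT, with 1.07 and 2.04 FPKM, followed by KO with 0.433, 0.584 and 0.973, KH with 0.807 and 0.465, and DKO with 0.416 and 0.391. It was the only one of the 8 genes whose WT libraries lay apart from all others, as they did in 10.1% of all genes fitted. All 7 libraries without Esrp1 were below both WT libraries, and the DKO libraries were the lowest. KO and KH means were 0.426 and 0.409 times the WT mean, and DKO was at 25.9% of WT, with a log2(FPKM + 1) difference of -0.84 (SE 0.22). Aldh1a2, the main embryonic retinaldehyde dehydrogenase, was at or below 0.0307 FPKM in every library and listed at 0 in 4 of them.

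The carriers of retinoic acid did not follow the genotypes. Crabp2, which brings retinoic acid to its receptors in the nucleus, was the most abundant of the 9 genes, at rank 674 of 38203 by mean FPKM. The DKO libraries read 131 and 64.0 FPKM and the WT libraries 127 and 132, with KO at 82.8, 250.3 and 192 and KH at 125 and 201. Genotypes overlapped throughout, and the difference between DKO and WT of -0.50 (SE 0.53) was smaller than its standard error. The 3 libraries with the lowest Crabp2 levels, DKO replicate 2, KO replicate 1 and KH replicate 1, were the same 3 that had the lowest sums of granular layer markers. The part of the granular layer in the Crabp2 level was not tested. The difference between DKO and WT turned on single libraries, at 0.02 without DKO replicate 2 and -1.01 without DKO replicate 1.

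**Figure D2:**
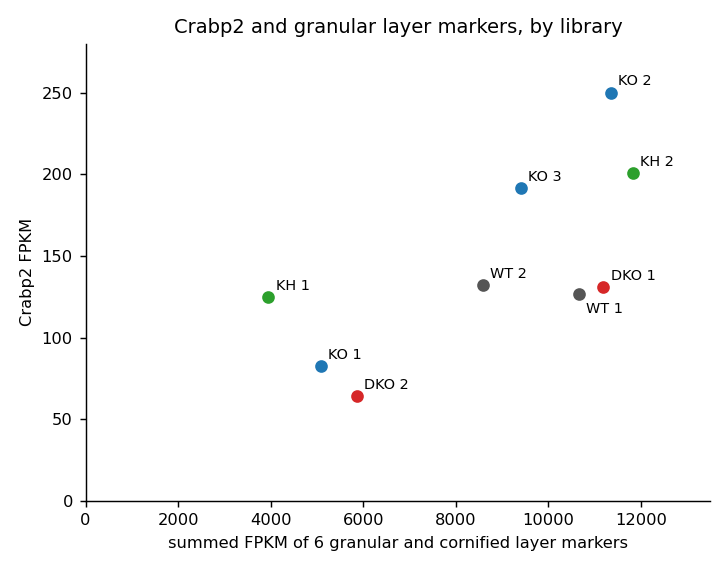
Crabp2 level (FPKM, vertical axis) against the summed FPKM of 6 granular and cornified layer markers (horizontal axis) in each of the 9 libraries, coloured by genotype. KH replicate 1, KO replicate 1 and DKO replicate 2 have the lowest marker sums (3951, 5088 and 5857 FPKM) and the lowest Crabp2 levels (125, 82.8 and 64.0 FPKM).

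Crabp1, the other cellular retinoic acid-binding protein, was below 0.51 FPKM in every library, with WT at 0.254 and 0, KO at 0.235, 0.217 and 0.094, KH at 0.504 and 0.0555, and DKO at 0.123 and 0.355. Its spread within genotypes was as wide as that between them. Aldh3a1, a detoxifying enzyme abundant in cornea, lay between 0.0119 and 0.132 FPKM. Its highest values, 0.132 and 0.113, were those of KH, which passed it through the filter, and the DKO libraries at 0.101 and 0.0287 spanned much of the range.

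Across the whole table, genes were called at an adjusted p below 0.05 in limma with more than a 2-fold difference in mean FPKM. Of the 8 fitted genes, 3 were called in DKO against WT (Aldh1a7 lower, Dhrs9 and Isx higher), where 0.728% of all 16897 genes were called. The same 3 genes were called against KO and against KH, where 0.639% and 0.426% of all genes were called. These comparisons share the DKO libraries, and the genes were chosen with these differences known, so nothing is read from the counts. The call of Dhrs9 against WT was lost without either WT library, that of Aldh1a7 against KO without DKO replicate 1, and that of Aldh1a7 against KH without any one of the DKO or KH libraries. Without the 3 libraries of low granular layer markers Aldh1a7 was called in none of the 3 comparisons, without a filter on low values Isx alone was called in each, and with only DKO and KH in the fit 0 of the 8 were called. The Aldh1a7 difference to WT was -4.41 without those 3 libraries and -4.30 with all 9. For Dhrs9 the difference to WT was 1.03 without WT replicate 1 and 1.10 without WT replicate 2, against 1.06 with all 9. With Xist above 1 FPKM as a covariate, an alternative chosen after seeing the data, 0 of the 8 genes were called against KO, 2 against WT (Aldh1a7 and Isx) and 3 against KH. None of the 8 was called in KO against WT or KH against WT (0.0296% of all genes in each) or in KH against KO (0% of all genes). An unadjusted p below 0.05 in KH against KO was found for 185 genes (1.09%). The median difference between DKO and WT was 0.10 over the 8 genes and 0.02 over all genes fitted. Both DKO libraries lay outside the range of the other 7 libraries in 5 of the 8 genes (Aldh1a3, Dhrs9 and Isx above, Aldh1a1 and Aldh1a7 below) and in 10.9% of all genes fitted. Both WT libraries did so in 1 of the 8 genes, Aldh1a1, and in 10.1% of all genes.

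**Figure D3:**
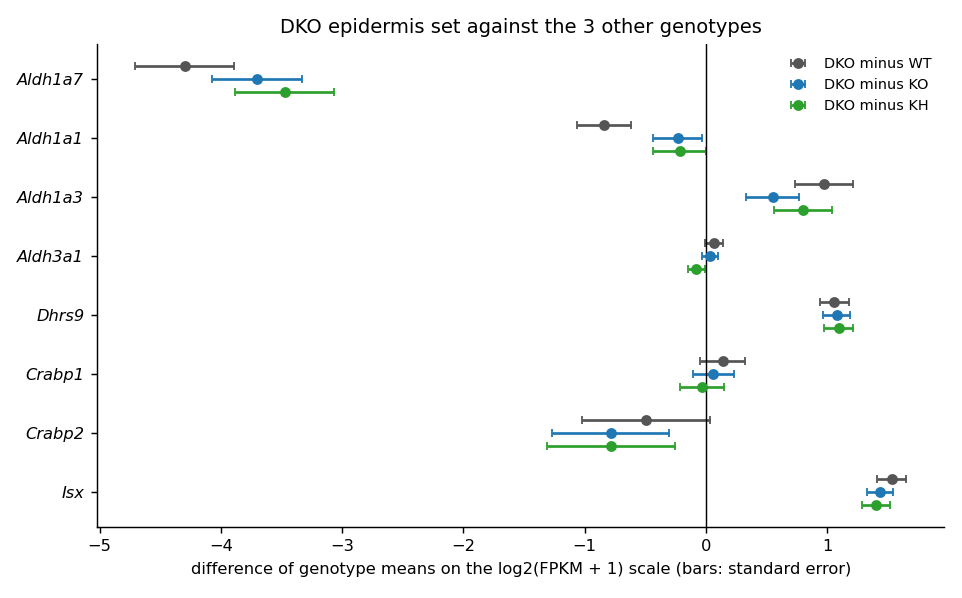
Difference between the DKO mean and the means of WT, KO and KH on the log2(FPKM + 1) scale for the 8 fitted genes, with standard errors as bars. Aldh1a7 lies between -4.30 and -3.47, Dhrs9 between 1.06 and 1.10 and Isx between 1.404 and 1.53, while Crabp1 and Aldh3a1 lie within 0.15 of 0.

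The aldehyde dehydrogenase family was described over 20 genes found in the table; Aldh3b3 was not matched by symbol and is not in the ranks and sums. In WT, Aldh1a7 ranked 2 of 20 at a mean of 68.2 FPKM, below Aldh3b2, an enzyme associated with lipid droplets, at 133 and above Aldh2, the mitochondrial acetaldehyde dehydrogenase, at 55.1. In DKO, at 2.38 FPKM, it ranked 11 of 20. Aldh1a7 made up 0.705% and 1.02% of the summed family FPKM in DKO, against 14.2% and 21.1% in WT, 10.6% to 16.9% in KO and 12.8% and 11.9% in KH. Aldh1a7 exceeded its neighbour Aldh1a1 by 43.2 to 81.6 times in the 7 other libraries and by 5.07 and 6.77 times in DKO. The summed level of Aldh1a1, Aldh1a2 and Aldh1a3 was 2.33 and 1.56 FPKM in DKO and between 1.05 and 2.21 FPKM in the other libraries, so that 1 DKO library lay just above the range of the others and 1 within it.

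**Figure D4:**
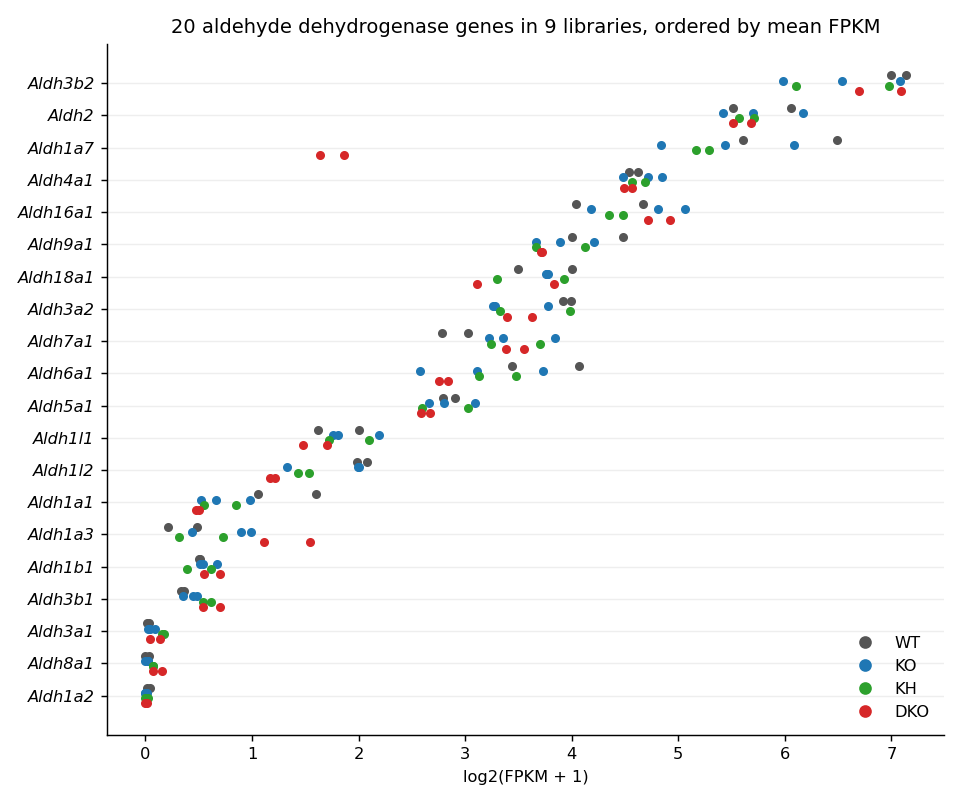
Levels of 20 aldehyde dehydrogenase genes on the log2(FPKM + 1) scale in 9 libraries, 1 point per library coloured by genotype, with genes ordered from top to bottom by mean FPKM. The DKO points of Aldh1a7 stand apart from its other 7 points, at 2.11 and 2.65 FPKM against 27.6 or more.

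The rest of the pathway was described from 6 lists of genes, 88 of which were in the table and 69 of which passed the filter. None of the 69 was called by limma in any of the 6 comparisons. Before adjustment, 5 had a higher and 9 a lower level in DKO than in WT with a p under 0.05, which are 14 of 69 genes, where 13.8% of all genes had such a p (6.15% higher and 7.6% lower). The median difference of the 69 between DKO and WT was -0.18 against 0.02 over all genes. Both DKO libraries lay outside the other 7 in 7 of the 69 genes (Dhrs11, Rarb, Rarg and Rbp7 above, Adh1, Adh4 and Aldh1l2 below), a share close to the 10.9% over all genes.

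Of the genes for retinol and retinaldehyde interconversion, 22 of 26 were fitted, with 0 higher and 3 lower in DKO than in WT at a p under 0.05 before adjustment, against 6.15% and 7.6% of all genes. The most abundant over all 9 libraries were Sdr16c5, an epidermal retinol dehydrogenase, Adh1, an alcohol dehydrogenase that oxidises retinol, and Dhrs1. Sdr16c5 was at 654 and 299 FPKM in DKO and at 384 and 361 in WT. Adh1 was at 180 and 61.0 FPKM in DKO against 203 to 389 in the other libraries, a difference to WT of -1.61 (SE 0.51, adjusted p = 0.229 in limma), with no overlap. Dhrs1 was at 264 and 171 FPKM in DKO and 145 and 110 in WT, with KO and KH between 81.9 and 177 (difference to WT 0.75, SE 0.40). Rdh12, a retinaldehyde reductase whose mean exceeded that of Dhrs1 in WT, KO and KH, was at 111 and 67.0 FPKM in DKO and 148 and 177 in WT, with KO and KH between 73.7 and 190.4 (difference to WT -0.90, SE 0.49, adjusted p = 0.448 in limma). By comparison, Dhrs9 reached at most 1.51 FPKM in any library.

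Of 16 genes of retinol transport, uptake and storage, 9 were fitted, with 1 higher and 0 lower by the same measure, against 6.15% and 7.6% of all genes. The intracellular retinol-binding protein Rbp2 was at 572 and 337 FPKM in DKO and 422 and 429 in WT. Dgat2, which esterifies lipids, was at 184 and 128 FPKM in DKO and 290.4 and 330.4 in WT, with KO and KH between 117 and 312. Dgat1 was at 15.6 and 14.6 FPKM in DKO and 10.7 and 10.4 in WT, with KO and KH between 8.26 and 18.1. In both genes DKO overlapped KO and KH. Rbp7, another retinol-binding protein, had the smallest adjusted p of all 69 genes and was singled out after its values were seen. It stood at 26.6 and 12.9 FPKM in DKO and between 1.73 and 6.09 in the other libraries, and its difference to WT of 2.27 (SE 0.55) had an adjusted p of 0.136 in limma. The uptake receptor gene Stra6 and Lrat, which esterifies retinol for storage, were at or below 0.012 FPKM in every library.

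The genes that bind and clear retinoic acid were led by Fabp5, an epidermal fatty acid-binding protein that can also carry retinoic acid, at 5617 and 4760 FPKM in DKO, 4069 and 3980 in WT and 2931 to 5558 in KO and KH. Cyp2s1, a skin P450 that can oxidise retinoic acid, was at 9.69 and 4.84 FPKM in DKO, 18.9 and 23.7 in WT and 6.75 to 15.6 in KO and KH. Cyp26b1 was at 1.11 and 1.15 FPKM in DKO and 2.86 and 2.43 in WT, with KO and KH between 0.936 and 4.001. Neither difference passed the test (adjusted p = 0.215 and 0.467 in limma). Of the 3 genes of this list that were fitted, 0 were higher and 1 lower at a p under 0.05 before adjustment, against 6.15% and 7.6% of all genes.

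All 12 receptor and cofactor genes were fitted, with 2 higher (Rara and Rarb) and 0 lower by the same measure, against 6.15% and 7.6% of all genes. In Rara both WT libraries lay below all 7 others. Rarb, itself a known target of retinoic acid, was at 1.14 and 1.01 FPKM in DKO and between 0.463 and 0.685 in the other libraries, a difference to WT of 0.41 (SE 0.12, adjusted p = 0.207 in limma), with no overlap. Rarg, the main retinoic acid receptor of epidermis, was at 71.7 and 77.5 FPKM in DKO and between 59.3 and 71.5 in the other libraries, a difference to WT of 0.22 (SE 0.18). Its partner Rxra was at 50.6 and 56.6 in DKO, 67.5 and 76.1 in WT and 51.0 to 72.5 in KO and KH, and the corepressor Ncor1 at 23.9 and 29.0 against 28.7 and 34.2. Of 14 further genes listed as responsive to retinoic acid, 9 were fitted, with 1 higher and 3 lower, against the same 6.15% and 7.6%. Lgals7, a galectin of stratified epithelia, was at 13718 and 7632 FPKM in DKO and 9185 and 7108 in WT, and Bhlhe40 at 21.3 and 19.3 against 15.8 and 39.7. Rarres1 was at 20.7 and 11.96 FPKM in DKO and 47.1 and 45.1 in WT, and DKO overlapped KO and KH, which ran from 16.3 to 51.7. Of the 15 other aldehyde dehydrogenases measured, 14 were fitted, with 1 higher and 2 lower, again beside 6.15% and 7.6% of all genes. Their differences between DKO and WT ran from -0.96 to 0.56. In that list the most abundant were Aldh3b2 at 135 and 103 FPKM in DKO and 127 and 140 in WT, Aldh2 at 50.3 and 44.7 against 44.7 and 65.5, and Aldh4a1, of proline breakdown, at 22.6 and 21.6 against 22.2 and 23.7.

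**Figure D5:**
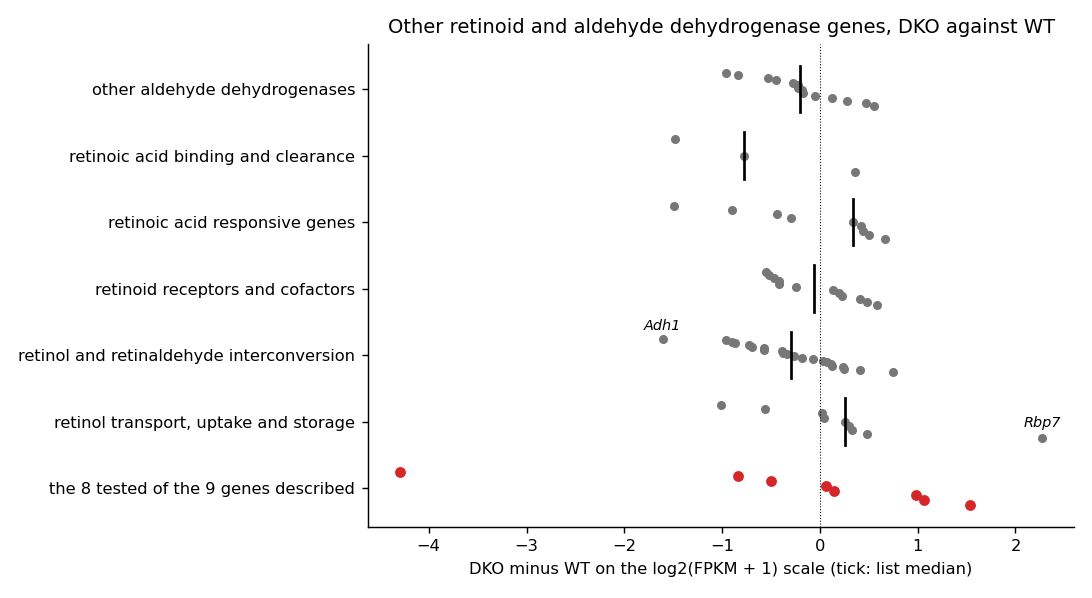
Difference between DKO and WT on the log2(FPKM + 1) scale for 69 other retinoid and aldehyde dehydrogenase genes in 6 lists (grey, black tick at the list median) and for the 8 fitted genes described here (red). Rbp7 at 2.27 and Adh1 at -1.61 lie farthest out among the 69 genes, and Aldh1a7 at -4.30 lies beyond both.

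Genes next to these loci were examined as well. Within 100 kb of the 9 loci, 19 other genes begin or end and were fitted. None was called in DKO against WT, where 0.728% of all genes were called. None of the 19 had an unadjusted p below 0.05 in limma, where 13.8% of all genes did, and their differences ran from -0.56 to 0.39. Aldh1a7 had no fitted neighbour apart from Aldh1a1, which is not among the 19. Dhrs9 had Abcb11 alone and Isx had Hmgxb4 alone, so most of the 19 lay near the other loci. Near Aldh1a3, Lrrk1 averaged 12.8 FPKM in DKO and 12.1 in WT. Near Isx, Hmgxb4 averaged 10.6 and 11.9. Near Aldh3a1, the fatty aldehyde dehydrogenase gene Aldh3a2 averaged 10.4 and 14.5. The bile salt pump gene Abcb11, next to Dhrs9, was at a mean of 0.134 FPKM in DKO and 0.0107 in WT.

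For each gene that averaged at least 1 FPKM in a genotype, the 3 genes most like it were found by Pearson correlation of log2(FPKM + 1) over the 9 libraries among 12739 other genes. For Aldh1a7 they were Mgarp (r = 0.984), Bag4 (r = 0.982) and Galnt10 (r = 0.981). Mgarp, a mitochondrial protein, was at 0.437 and 0.511 FPKM in DKO and between 7.64 and 26.1 elsewhere. For Dhrs9 they were Lce3a (r = 0.999), a late cornified envelope protein, Tchhl1 (r = 0.998), a trichohyalin-like protein, and the small nucleolar RNA SNORA42 (r = 0.995). Lce3a stood at 3.21 and 1.99 FPKM in DKO and at or below 0.051 elsewhere. For Isx they were the protease inhibitor genes Slpi (r = 0.996) and Spink12 (r = 0.996) and the transporter gene Slc5a8 (r = 0.995). Slpi was at 84.0 and 66.4 FPKM in DKO and between 0.243 and 1.12 elsewhere. In each of these 9 genes both DKO libraries lay outside the range of the other 7, as they did in Aldh1a7, Dhrs9 and Isx, and the points share their libraries. The 9 genes were picked for their likeness to those 3, so this follows from the choice. Over all genes fitted the share was 10.9%.

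The genes most like Aldh1a1 were Hspa2 (r = 0.986), a heat shock protein, 1200011I18Rik (r = 0.979) and Kpna4 (r = 0.969), an importin. Hspa2 was at 5.06 and 9.72 FPKM in WT, at 2.41 to 4.77 in KO and KH and at 2.02 and 2.34 in DKO. Those most like Aldh1a3 were 5730446D14Rik (r = 0.971), the exonuclease gene Trex1 (r = 0.969) and Cox6a2 (r = 0.968). Those most like Crabp2 were Sdhaf1 (r = 0.955), the acute phase protein gene Orm1 (r = 0.954) and the protease gene Prss27 (r = 0.954). Orm1 was at 63.7 FPKM in DKO replicate 2, 116 in KO replicate 1 and 125 in KH replicate 1, and between 145 and 340 in the other 6 libraries.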

How the data were processed

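RNA-seq of 9 mouse epidermis libraries was analysed. The authors mapped reads to mm10 and an Ensembl transcriptome with TopHat v1.4.1 and deposited FPKM estimated by Cuffdiff v2.2.0 for 38203 genes in each library and as genotype means; how Cuffdiff scaled the libraries is not given in the sources used here. All columns of single libraries were used, and means were computed from them. In 21 entries the deposited mean differed from that mean by more than 0.1%.

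Genes averaging above 0.1 FPKM in at least 1 genotype (16897) were fitted on the log2(FPKM + 1) scale in R 4.3.3 by limma 3.58.1, using all 9 libraries, a mean for each of 4 genotypes, an intensity trend and Benjamini-Hochberg adjustment over all genes in each of 6 comparisons. Calls required an adjusted p under 0.05 and over a 2-fold difference in mean FPKM. The code was tested on simulated data. The replicates are single embryos. The table gives no counts, so the precision rests on 2 or 3 libraries per genotype.

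The 9 genes and all lists were chosen with earlier results of these data known. Named besides them are called pathway genes, the 3 most abundant genes of each pathway list, genes within 100 kb, the 3 most correlated genes, the targeted genes and markers; others are said to be chosen after their values were seen, as were Bcmo1, Scarb1, Stra6, Lrat, Cyp26b1, Rara, Rdh12 and the genes apart from the other libraries. A list entry with an ambiguous symbol was replaced by Bhlhe40. Promoters came from RefSeq (GRCm38.p6) and transcripts from GENCODE M21, whose longest open reading frames were aligned. Tables were prepared in Python 3.11.15 with pandas 2.3.3. The effect of 19 other settings, and of 2 added after the data were seen, is given at the end. Splicing was not analysed here.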

Additional observations from a re-analysis of the deposited data

How the results depend on the processing

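The number of genes called was recomputed for the 9 genes and for the other pathway genes in 6 comparisons under 21 alternatives, with the spread of a lone library taken from the other genotypes. Of the 189 recounts of a main count of 0, 187 stayed at 0. Of the 63 recounts of a main count of 3, 41 gave 3, 16 gave 2, 1 gave 4, 3 gave 1 and 2 gave 0. Without a filter on low values, 1 gene (Isx) instead of 3 was called in DKO against WT, against KO and against KH, with 38203 genes tested. With only the compared genotypes in the fit, 0 instead of 3 were called in DKO against KH. With Xist above 1 FPKM as a covariate, an alternative added after the data were seen, 0 instead of 3 were called in DKO against KO, where Xist separates the genotypes completely. Rbp7 was the 1 pathway gene called with arrayWeights in DKO against WT and after rescaling to TPM in DKO against KO, instead of 0. Dhrs9 was not called in DKO against WT without WT replicate 1 (adjusted p = 0.0647 in limma) or WT replicate 2 (0.0552), with the filter at 1 FPKM (0.079), with only DKO and WT in the fit (0.102) or with Xist as a covariate (0.0526), over a range of 0.000574 to 0.102. Aldh1a7 was not called without the 3 libraries of low granular layer markers, also added later (adjusted p = 0.102, difference -4.41). Against KH it was not called when any DKO or KH library was left out, and against KO when DKO replicate 1 was. Aldh1a3 was called with arrayWeights (adjusted p = 0.0365 in limma). Isx kept its call in DKO against WT under all 21. Uncalled differences changed sign for Crabp1 without WT replicate 2 and with the Xist covariate (both -0.023), and for Crabp2 without DKO replicate 2 and without the 3 libraries (both 0.0163). Leaving out 1 library at a time gave -0.023 to 0.303 for Crabp1 and -1.01 to 0.0163 for Crabp2. With a pseudocount of 0.1 the differences between DKO and WT were 3.07 for Dhrs9, 3.87 for Isx, 2.15 for Aldh1a3, -1.66 for Aldh1a1, 0.469 for Aldh3a1 and 0.762 for Crabp1, over 1.5 times those reported, with the same calls. With the replicate block, 3 of the genes were called against WT and KO and 2 against KH, where Dhrs9 was not called. The block used the replicate numbers of the sample titles. Deviations of same-numbered libraries correlated above 0.1 in 4 of 12 pairs (r from -0.567 to 0.468). In the table's column names 4 libraries carry another number, and by those numbers 4 of 6 pairs did (r from -0.23 to 0.543), none of them a DKO and WT pair, and since not every pair did, neither numbering was taken as pairs and no block by column number was run. Over all genes, the 123 calls in DKO against WT (81 higher, 42 lower) were 177 after rescaling to TPM (96 and 81), 41 without a filter, 67 with the replicate block and 556 with arrayWeights. Rescaling to TPM moved the median of all genes in DKO against KH by -0.115.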

Other observations

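Krt13, a keratin of oral and oesophageal epithelium, was at 47.1 and 9.46 FPKM in DKO and between 0.832 and 3.85 in the other 7 libraries, and its partner Krt4 at 0.339 and 0.296 against at most 0.0893. Neither passed the test in DKO against WT (adjusted p = 0.177 and 0.121 in limma). The paper, which tested expression with Cuffdiff, lists Krt13 among the keratins raised in DKO. The 6 markers of this list summed to 709 and 304 FPKM in DKO, 999.8 and 1116 in WT and 492 to 684 in KO and KH, most of it Krt15 at 655 and 288 FPKM in DKO and 990.3 and 1109 in WT, and Krt19 was at 0.246 and 0.375 in DKO against 1.03 and 0.547 in WT. The sebocyte regulator Pparg was called in DKO against WT, with a difference of 1.26 (SE 0.16, adjusted p = 0.0113 in limma), while the 7 sebocyte markers summed to 13.8 and 9.66 FPKM in DKO and 8.003 to 11.6 in the other libraries. Melanocyte markers summed to 99.0 and 216 FPKM in DKO, 51.2 and 45.8 in WT and 60.0 to 158 in KO and KH. Krt13, Krt4, Krt15 and Krt19 were singled out after their values were seen.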
